A study of Mus musculus with 24 samples.

Results

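SR9011, an agonist of REV-ERB alpha, and CLK8, a compound described as a disruptor of the CLOCK:BMAL1 dimer, were compared directly in EMS404 cells that received no TGFb. The comparison held 6 of the 24 RNA-seq libraries of the series, 3 treated with SR9011 and 3 treated with CLK8, taken by their treatment labels and library names alone. EMS404 is a single line of hepatic stellate cells from the liver of a C57Bl6 mouse, immortalized with SV40 and carrying human TLR4. SR9011 and CLK8 cells had compound for 24 h, and the SR9011+TGFb and CLK8+TGFb cells had compound for 24 h and then compound with 10 ng/mL TGFb for another 24 h. Vehicle cells, named DMSO in the library names but untreated (control) in the sample titles, had neither. The other 3 groups, named TGFb, SB431542 and SB431542+TGFb (SB431542 blocks TGFb receptor kinases), entered the fit and the filter on low values only. All 8 groups had 3 libraries, called biological triplicates by the submitters, and the p-values rest on the spread within groups over these 24 samples, which may be technical. The comparison is at a matched time, while the doses of both compounds are unknown from the labels. The labels also do not say how long after the first 24 h the cells that had no TGFb were collected.

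In the mammalian clock, CLOCK and BMAL1 (the product of Arntl) bind E-box elements and drive the period, cryptochrome and REV-ERB genes. PER and CRY proteins return to block the dimer, and REV-ERB proteins repress Arntl and other genes through the ROR element that they share with the ROR activators. A REV-ERB agonist and a CLOCK:BMAL1 disruptor therefore enter the same circuit at 2 points. Hepatic stellate cells store vitamin A in the healthy liver and, once activated, make most of the collagen of a scarred liver.

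Expression was given as FPKM (fragments scaled to transcript length and to all mapped fragments), and differences below are SR9011 minus CLK8 on the scale log2(FPKM + 1), which understates the change of low genes. Genes count as called at a Benjamini-Hochberg adjusted p under 0.05, from limma and adjusted over the 11297 genes tested. The FPKM values summed to between 548928 and 610024 in the SR9011 libraries and between 541146 and 558820 in the CLK8 libraries. Read totals are unknown, but the smallest value steps of 61 genes put the depths of the 6 libraries at 0.94 to 1.03 times the median of all 24. SR9011 libraries were more scattered, with a median SD of 0.101 on the log2 scale, against 0.0665 in CLK8 and 0.0518 in vehicle. SR9011 replicate 1 lay apart from the other SR9011 libraries on the second principal component, which held 8.35% of the variance of the 6 libraries, while the first (84.2%) separated the compounds. Col1a1, Vim, Hand2, Pdgfrb and Lhx2, 5 of the 7 stellate markers measured, reached 1 FPKM. Des, the desmin gene, stayed under 1 FPKM in all 6 libraries, Reln was listed at 0, and Lrat was not analysed here. The 7 stellate markers summed to 859 to 1006 FPKM in SR9011, 1984 to 2029 FPKM in CLK8 and 2357 to 2461 FPKM in vehicle. Col1a1, whose values are given below, held much of these sums. Of the 5 stellate markers tested, 3 were lower with SR9011, 1 (Pdgfrb) was higher and 1 (Lhx2) was not called. Hepatocyte markers, 4 of 7 measured, summed to 0.050 FPKM or less in SR9011 and CLK8 and to 0.10 to 0.22 FPKM in vehicle. Ptprc of leukocytes and Cdh5 and Emcn of endothelium were listed at 0 in all 6 libraries. The other measured markers of their lists were not, with 5 of 9 macrophage markers measured. Macrophage markers summed to 8.84 to 10.8 FPKM in SR9011 and 11.3 to 12.8 FPKM in CLK8, and endothelial markers to 2.09 to 2.29 FPKM in SR9011 and 0.91 to 0.93 FPKM in CLK8. Portal fibroblast markers summed to 495 to 531 FPKM in SR9011 and 623 to 650 FPKM in CLK8, mesothelial markers to 171 to 258 FPKM in SR9011 and 235 to 279 FPKM in CLK8, and cholangiocyte markers to 7.91 to 8.83 FPKM in SR9011 and 15.7 to 16.0 FPKM in CLK8. Their part in the results was not tested. In bulk RNA, fewer cells of a type and less RNA per cell cannot be told apart.

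The compounds left most measured genes at different levels. Cells given SR9011 had more RNA of the integrated stress response, most listed antioxidant genes, lysosomal genes and ribosomal protein genes than cells given CLK8. They had less RNA of interstitial collagens, proteoglycans, chemokines, complement, interferon-stimulated genes and sterol synthesis enzymes. Of the 11297 genes tested, 3675 (32.5%) were higher and 3514 (31.1%) lower with SR9011, 63.6% in all (limma, Benjamini-Hochberg). Differences of at least 2-fold, a log2 difference of 1, numbered 140 higher (1.24%) and 296 lower (2.62%), 3.86% together. The 3 SR9011 libraries lay wholly above the CLK8 libraries in 3442 genes (30.5%) and wholly below in 3336 genes (29.5%). After rescaling to TPM the split was 2794 higher and 4244 lower, the median of all genes lying at -0.07 rather than 0.01. With so many genes called, the counts of called members given below are to be read against these shares, and no list is called particular to the comparison.

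**Figure D1:**
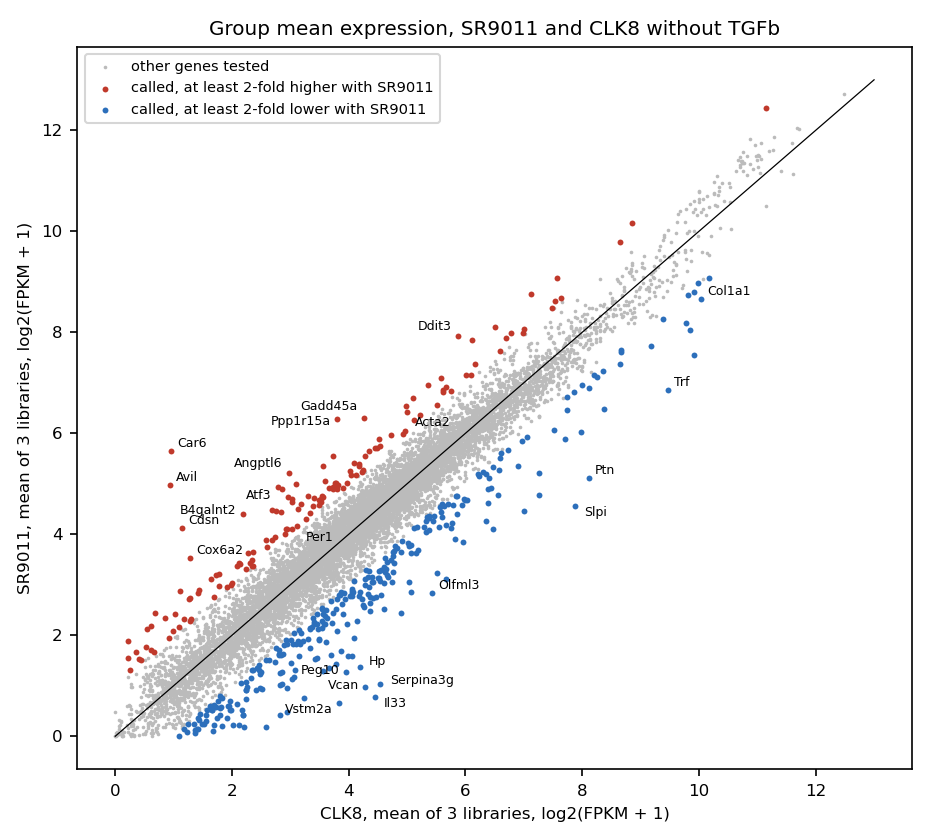
Log2(mean FPKM + 1) of the 3 SR9011 (vertical axis) and the 3 CLK8 libraries (horizontal axis) for the 11297 genes tested. Genes called at 2-fold or more are in red (140 higher with SR9011) and blue (296 lower), and the line of equality is black. Car6 and Avil stand furthest above the line and Il33, Serpina3g, Slpi and Vcan furthest below it.

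The largest difference was in Car6 (ENSMUSG00000028972, chromosome 4, 150187015 to 150201332), which codes for a secreted carbonic anhydrase. The 3 SR9011 libraries of Car6 had 52.99, 38.2 and 57.0 FPKM, against 1.12, 0.900 and 0.770 FPKM in the CLK8 libraries and 0.350, 0.360 and 0.420 FPKM in vehicle. The groups did not overlap, and the mean was 53.1 times that of CLK8 cells (log2 4.69, SE 0.155, limma adjusted p = 4.87e-16). Avil (ENSMUSG00000025432, chromosome 10, 127000709 to 127020994), the gene of the actin-binding protein advillin, had 35.5, 27.6 and 28.0 FPKM with SR9011 and 1.03, 0.860 and 0.860 FPKM with CLK8 (log2 4.02, limma adjusted p = 2.45e-14). It overlaps Tsfm, and since the labels do not say whether libraries kept strand its value is less certain. For both genes every CLK8 library was near 1 FPKM and every SR9011 library far above it. Cdsn, a desmosome-associated adhesion protein best known from skin, had 18.5, 12.2 and 18.5 FPKM with SR9011 against 1.67, 0.720 and 1.26 FPKM with CLK8 (log2 2.97). Next came Ppp1r15a (2.48), the muscle-type cytochrome oxidase subunit gene Cox6a2 (2.23), Angptl6 (2.23), which overlaps A230050P20Rik, the glycosyltransferase gene B4galnt2 (2.21), Atf3 (2.15), Ddit3 (2.05) and Gadd45a (2.03), several of which are stress genes described below.

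Il33 (ENSMUSG00000024810, chromosome 19, 29925114 to 29960718), the gene of an alarmin cytokine released by damaged cells, stood furthest on the other side. The 3 SR9011 libraries of Il33 had 0.680, 1.03 and 0.450 FPKM, against 20.9, 22.1 and 19.8 FPKM in the CLK8 libraries and 12.98, 14.2 and 13.9 FPKM in vehicle (log2 -3.69, SE 0.103, limma adjusted p = 5.95e-18). All SR9011 libraries were thus near 1 FPKM, and the CLK8 libraries above those of vehicle. Slpi (ENSMUSG00000017002, chromosome 2, 164354070 to 164389095), which codes for a secreted inhibitor of leukocyte proteases, had 24.1, 22.4 and 21.3 FPKM with SR9011, 216, 255 and 233 FPKM with CLK8 and 47.7, 57.9 and 54.0 FPKM with vehicle (log2 -3.32, limma adjusted p = 9.36e-15). Vcan (ENSMUSG00000021614, chromosome 13, 89655312 to 89742509), the gene of the large proteoglycan versican, had 0.930, 0.960 and 1.04 FPKM with SR9011, 19.2, 18.4 and 17.97 FPKM with CLK8 and 2.09, 1.92 and 1.71 FPKM with vehicle (log2 -3.30, limma adjusted p = 3.32e-20). For Slpi and Vcan the vehicle libraries lay between the compounds, so that each compound stood on its own side of vehicle. Serpina3g (-3.50), a serpin, had the same order, at means of 1.06 FPKM in SR9011, 22.1 FPKM in CLK8 and 7.57 FPKM in vehicle. By contrast, for the growth factor gene Ptn (-3.05), haptoglobin (Hp, -2.81), Olfml3 (-2.63) and transferrin (Trf, -2.62) CLK8 against vehicle was not called, and for Vstm2a (-3.18) CLK8 was above vehicle by 0.21. Peg10 (-2.68), an imprinted gene derived from a retrotransposon, was the other of the 10 largest falls.

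Among the genes through which the clock works, the repressor arm separated the compounds most. Per1 (ENSMUSG00000020893, chromosome 11, 69095217 to 69109960) had 17.4, 16.6 and 16.8 FPKM with SR9011, 6.99, 8.28 and 7.81 FPKM with CLK8 and 7.10, 8.11 and 7.74 FPKM with vehicle (log2 1.05, SE 0.06, limma adjusted p = 9.77e-13). CLK8 and vehicle overlapped, while every SR9011 library was far above both. Ciart (ENSMUSG00000038550, chromosome 3, 95878503 to 95882251), which codes for a repressor of CLOCK:BMAL1, had 11.4, 10.4 and 13.1 FPKM with SR9011, 3.51, 5.57 and 3.34 FPKM with CLK8 and 9.09, 9.97 and 9.74 FPKM with vehicle (log2 1.32, limma adjusted p = 8.4e-08). There it was the CLK8 libraries that stood apart, at the bottom. Cry1 was higher with SR9011 by 0.65 and Cry2 by 0.40, and for both the vehicle mean lay between the compounds. Per2 (3.82 FPKM with SR9011 and 3.50 FPKM with CLK8) was not called, with a 95% interval of -0.04 to 0.23 for the log2 difference. Per3, which overlaps Camta1, was not called either, with an interval of -0.15 to 0.16. Of the 9 tested genes of the period and cryptochrome list, which also holds the kinase genes Csnk1d and Csnk1e, 5 were higher and 1 (Csnk1d, -0.12) was lower, with a median of 0.35. The call of Csnk1d was lost without CLK8 replicate 1 or 3, without SR9011 replicate 2, with group weights and when SR9011 and CLK8 were fitted alone.

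The genes of the other arms differed less. Nr1d1, which codes for REV-ERB alpha and overlaps Thra, had 6.01, 5.32 and 5.49 FPKM with SR9011, 4.75, 3.81 and 4.22 FPKM with CLK8 and 2.44, 2.21 and 1.73 FPKM with vehicle (log2 0.33, limma adjusted p = 0.00131). Both compounds thus stood above vehicle, SR9011 by 1.08 and CLK8 by 0.75 on the log2 scale, in comparisons that share the vehicle libraries. Nr1d2, the gene of REV-ERB beta, had 13.4, 19.7 and 20.4 FPKM with SR9011 and 16.0, 15.0 and 16.0 FPKM with CLK8, and was not called (log2 0.15, 95% interval -0.05 to 0.36). Its lowest SR9011 value was that of replicate 1, without which the difference was 0.34 and called (limma adjusted p = 0.000159). Arntl was higher with SR9011 by 0.21 and Clock by 0.41, Clock at 7.12, 10.7 and 10.8 FPKM with SR9011 and 7.11, 6.91 and 6.5 FPKM with CLK8, where SR9011 replicate 1 was level with the highest CLK8 value. Rora, which codes for an activator at the ROR element, was higher by 0.27, a call lost in 8 settings (without SR9011 replicate 2 or 3, without CLK8 replicate 1 or 3, in the fit of the compared groups alone, with group weights, after TPM scaling and with no filter on low values). Npas2 stayed under 1 FPKM in the 6 libraries and was not tested.

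Output factors went different ways. Nfil3, a repressor at D-box elements, was lower with SR9011 (24.8, 21.7 and 21.4 FPKM, against 28.3, 28.1 and 24.8 FPKM with CLK8, log2 -0.25, limma adjusted p = 0.0011), with 1 value in common. Of the D-box activators, Dbp (95% interval -0.41 to -0.01), Tef (-0.08 to 0.12) and Hlf (-0.04 to 0.41) were not called. Without SR9011 replicate 1 Dbp was called at -0.30 and Hlf at 0.35. Bhlhe41, which codes for the E-box repressor DEC2, was higher (0.63) at means of 1.61 FPKM in SR9011 and 0.683 FPKM in CLK8. Bhlhe40, the DEC1 gene, had 27.2, 29.1 and 28.6 FPKM with SR9011 and 19.3, 32.4 and 17.1 FPKM with CLK8 and was not called (log2 0.35, 95% interval -0.04 to 0.73). CLK8 replicate 2 was its highest library, and without it the difference was 0.61 and called. Tsc22d3, a glucocorticoid-induced gene with circadian expression in many tissues, was higher by 0.77, with 30.7, 31.4 and 30.2 FPKM in SR9011 and 17.9, 17.3 and 17.8 FPKM in CLK8.

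**Figure D2:**
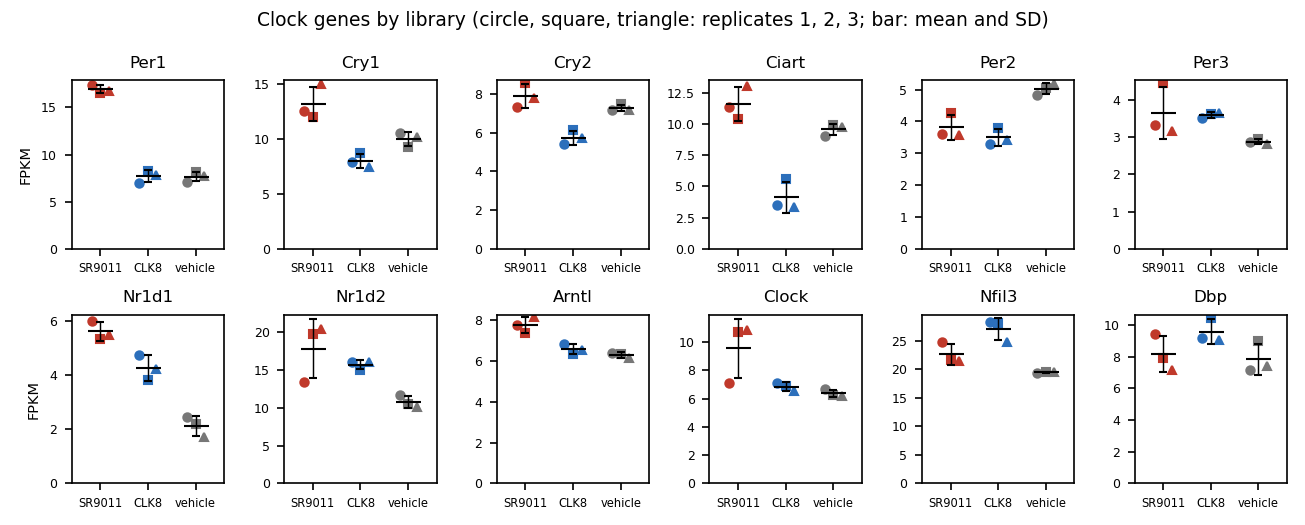
FPKM (vertical axes, each from 0) of 12 clock genes in the SR9011, CLK8 and vehicle libraries without TGFb, with a circle, square and triangle for replicates 1, 2 and 3 and a bar for the mean and SD. Per1 is high only in the SR9011 group of the 3 shown, Ciart is low only in the CLK8 group, and Nr1d1 is above vehicle in both.

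Promoter sequence is shown for genes of the period and cryptochrome list with an E-box, and for Arntl and Nfil3 with a ROR element, because these are the elements of the circuit named above. In RefSeq promoters of GRCm38.p6, taken as 250 bases before to 50 after each start site, the palindromic E-box CACGTG (the same on both strands) occurred in 7.15% of all 32841 promoters and in 10.1% of the 11508 promoters of genes tested. Among the period and cryptochrome list it was found for Per1, Ciart and Cry1, all higher with SR9011, of 6 genes with a promoter in the table. Counted by promoter as in the shares above, that was 30.0% of 10. Of 7 clock output genes with a promoter, Bhlhe41 (higher) and Tef (not called) held it, and are not shown. The ROR element TAGGTCA, searched on both strands, occurred in 2.61% of all promoters and 1.81% of those of genes tested, and among the clock genes it was found for Arntl (higher) and Nfil3 (lower). A match describes these letters and not the binding of a factor. The stretches below run 5′ to 3′ along the gene's strand with the matches in capitals, at Per1 chr11:69098763-69098808 (+ strand), Ciart chr3:95882247-95882364 (- strand), Cry1 chr10:85185089-85185134 (- strand), Arntl chr7:113207521-113207560 (+ strand) and Nfil3 chr13:52981025-52981071 (- strand). In Nfil3 the match is on the other strand, so its capitals are the reverse complement.
Per1: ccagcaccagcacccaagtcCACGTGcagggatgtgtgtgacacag
Ciart: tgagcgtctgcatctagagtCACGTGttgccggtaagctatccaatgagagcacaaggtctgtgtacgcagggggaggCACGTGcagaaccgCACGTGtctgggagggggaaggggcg
Cry1: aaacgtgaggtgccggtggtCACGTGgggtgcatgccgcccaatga
Arntl: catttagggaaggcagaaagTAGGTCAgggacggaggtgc
Nfil3: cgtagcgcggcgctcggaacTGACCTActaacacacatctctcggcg

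The integrated stress response, in which phosphorylation of eIF2 alpha slows protein synthesis and favours translation of ATF4, was higher with SR9011 across most of its listed genes. Of 29 tested genes, 27 were higher and 0 lower, against 32.5% and 31.1% of all genes, and 13 were at least 2-fold higher (1.24% of all genes). The median log2 difference was 0.95, against 0.01 over all genes. Ddit3 (ENSMUSG00000025408, chromosome 10, 127290774 to 127296288), the gene of the transcription factor CHOP, had 284, 201 and 240.1 FPKM with SR9011, 61.5, 48.6 and 62.0 FPKM with CLK8 and 34.1, 39.7 and 36.5 FPKM with vehicle (log2 2.05, SE 0.102, limma adjusted p = 2.14e-13). It overlaps Mars. Ppp1r15a (ENSMUSG00000040435, chromosome 7, 45522916 to 45526268), which codes for the phosphatase subunit GADD34 that reverses eIF2 alpha phosphorylation, had 88.9, 64.2 and 79.0 FPKM with SR9011, 13.3, 12.6 and 12.7 FPKM with CLK8 and 10.8, 9.89 and 10.97 FPKM with vehicle (log2 2.48, limma adjusted p = 2.63e-16). The stress transcription factor gene Atf3 (ENSMUSG00000026628, chromosome 1, 191170296 to 191218039) had 31.8, 25.1 and 32.3 FPKM with SR9011, 6.45, 4.80 and 6.49 FPKM with CLK8 and 7.34, 6.75 and 7.85 FPKM with vehicle (log2 2.15). For all 3 genes the SR9011 libraries lay far above both other groups, and for Atf3 CLK8 lay below vehicle. Trib3, a pseudokinase gene induced by ATF4 and CHOP, followed with 253, 211 and 222 FPKM in SR9011 and 76.4, 58.8 and 68.4 FPKM in CLK8 (log2 1.74, limma adjusted p = 3.09e-14).

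Other members covered amino acid supply. Atf4 itself was higher by 0.76, at 531 ± 18.4 FPKM in SR9011 and 314 ± 28.4 FPKM in CLK8 (SD, n = 3 each). The asparagine synthetase gene Asns was higher by 1.03, the serine synthesis genes Phgdh and Psph by 0.95 and 1.07, the mitochondrial one-carbon genes Shmt2 and Mthfd2 by 1.07 and 0.88, and the amino acid transporter genes Slc7a5 and Slc7a11 by 0.95 and 0.75. Chac1, which degrades glutathione, was higher by 1.53, and Fgf21, a stress hormone gene, by 1.81. Cebpb (-0.02) and Ddit4 (0.11) were not called. Of 20 cytosolic aminoacyl-tRNA synthetase genes, 16 were higher and 0 lower, with a median of 0.49. Sars, the seryl-tRNA synthetase gene, had 185, 158 and 170.1 FPKM with SR9011 and 94.1, 82.7 and 94.4 FPKM with CLK8 (log2 0.91, limma adjusted p = 5.26e-12). Wars (0.90, overlapping Wdr25) and Yars (0.77, overlapping C77080) followed. Replicate 2 was the lowest library of both compounds for Atf4, Ddit3, Trib3, Chac1, Asns and Sars. Without CLK8 replicate 2 the median of the stress list was 0.81 with the same counts of calls.

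**Figure D3:**
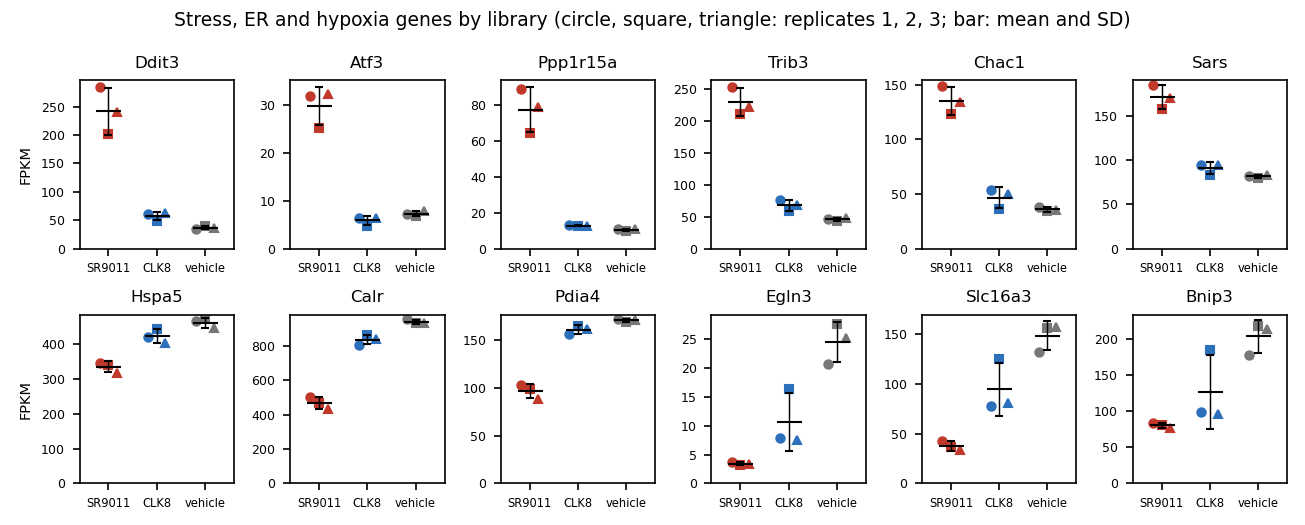
FPKM (vertical axes, each from 0) of 12 stress, endoplasmic reticulum and hypoxia genes in the SR9011, CLK8 and vehicle libraries without TGFb, with a circle, square and triangle for replicates 1, 2 and 3 and a bar for the mean and SD. The stress genes of the upper line are highest with SR9011, the chaperones Hspa5, Calr and Pdia4 are lowest with SR9011, and Egln3, Slc16a3 and Bnip3 are set apart in CLK8 by replicate 2 (square).

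Chaperones of the endoplasmic reticulum (ER), the targets of the ATF6 and XBP1 arms of the unfolded protein response, did not follow the stress list. Of 19 tested, 5 were higher and 11 lower with SR9011, with a median of -0.29 (-0.19 after quantile normalization), while 2 were higher when SR9011 and CLK8 were fitted alone, 2 after TPM scaling and 3 without CLK8 replicate 3. Calr, the gene of the calcium-binding chaperone calreticulin, had 503, 466 and 436 FPKM with SR9011, 809, 865 and 840.0 FPKM with CLK8 and 956, 936 and 936 FPKM with vehicle (log2 -0.84, limma adjusted p = 5.15e-12). Pdia4, a disulfide isomerase gene, had 103, 98.8 and 89.0 FPKM with SR9011 and 157, 165 and 162 FPKM with CLK8 (log2 -0.73, limma adjusted p = 3.48e-12). Hsp90b1 (-0.60) and Hspa5 (-0.33), the genes of GRP94 and BiP, were lower too. SR9011 libraries lay below CLK8 libraries without overlap in these 4 genes. Among the 5 higher was Herpud1, a gene of ER-associated degradation, with 114, 106 and 113 FPKM in SR9011 and 63.6, 53.2 and 57.3 FPKM in CLK8 (log2 0.92, limma adjusted p = 3.03e-12). Atf6 itself, which is outside the ER list and was looked up after its value was seen, was higher with SR9011 (log2 1.22). Cytosolic heat shock chaperones were divided, 6 of 13 higher and 3 lower. Their median of 0.11 was -0.03 after quantile normalization and 0.03 after TPM scaling.

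Some promoters of the stress list and some of the ER list carry different elements, and examples are shown. Whether these elements bear on the direction of the genes was not tested. The CARE motif TGATGNAAN, at which ATF4 dimers bind, was searched on both strands and occurred in 3.95% of all promoters and in 2.2% of those of genes tested. It was found for 9 of the 26 genes of the stress list with a promoter in the table, in 28.1% of their 32 promoters. All 9 were higher with SR9011, as were 27 of all 29 tested genes of that list. Among synthetases it was found for 5 of 12 genes (41.7% of 12 promoters), 4 of them higher, where 16 of all 20 tested were higher. The ER stress response element (ERSE) (CCAAT and CCACG with 9 bases between them), also searched on both strands, occurred in 0.119% of all promoters and in 0.13% of those of genes tested. It was found for 8 of 17 ER genes (47.1% of 17 promoters), 6 of them lower and 1 higher, where 11 of all 19 tested were lower and 5 higher. Herpud1 was the one gene of the ER list with a CARE match, and its window held no ERSE by these letters. The stretches, with matches in capitals and in the gene's direction, lie at Atf3 chr1:191183416-191183464 (- strand), Trib3 chr2:152344019-152344067 (- strand), Chac1 chr2:119351028-119351076 (+ strand), Yars chr4:129189886-129189934 (+ strand), Herpud1 chr8:94386296-94386344 (+ strand), Hspa5 chr2:34772005-34772063 (+ strand), Calr chr8:84847055-84847113 (- strand) and Hsp90b1 chr10:86705513-86705676 (- strand), and where the strands differ the capitals are the reverse complement of the motif.
Atf3: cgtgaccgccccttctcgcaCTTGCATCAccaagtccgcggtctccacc
Trib3: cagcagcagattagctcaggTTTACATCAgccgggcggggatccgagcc
Chac1: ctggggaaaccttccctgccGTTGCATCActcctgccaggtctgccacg
Yars: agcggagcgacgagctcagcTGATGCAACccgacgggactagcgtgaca
Herpud1: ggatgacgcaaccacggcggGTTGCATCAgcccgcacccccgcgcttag
Hspa5: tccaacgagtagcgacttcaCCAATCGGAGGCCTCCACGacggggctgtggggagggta
Calr: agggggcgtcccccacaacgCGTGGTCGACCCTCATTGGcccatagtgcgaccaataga
Hsp90b1: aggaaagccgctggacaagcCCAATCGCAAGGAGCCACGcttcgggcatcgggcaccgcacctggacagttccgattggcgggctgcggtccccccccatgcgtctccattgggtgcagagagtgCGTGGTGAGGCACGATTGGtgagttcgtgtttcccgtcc

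Antioxidant genes under the transcription factor NRF2 were mostly higher with SR9011, 15 of 20 against 4 lower, with a median of 0.37. The ferritin light chain gene Ftl1 had 6096, 5210.1 and 5412 FPKM with SR9011, 2250.1, 2278 and 2289.7 FPKM with CLK8 and 1648, 1869 and 1719 FPKM with vehicle (log2 1.29, limma adjusted p = 2.15e-13). Gclc, the catalytic subunit gene of glutathione synthesis, had 38.2, 40.5 and 41.2 FPKM with SR9011 and 18.4, 16.3 and 16.2 FPKM with CLK8 (log2 1.19, limma adjusted p = 2.45e-14). Srxn1 (1.26), Hmox1 (1.19) and Txnrd1 (1.15) were also over 2-fold higher. Osgin1 (-0.67), Gstm1 (-0.42), Txn1 (-0.26) and Prdx1 (-0.21) were lower. Glutathione transferase genes outside this list, looked up after their values were seen, were divided. Gsta3 (1.9) and Gsto1 (1.19) were higher, and Gstt1 (-1.47), Mgst2 (-1.3) and Mgst1 (-1.21) lower. Nqo1, a target of both NRF2 and the aryl hydrocarbon receptor, was higher by 0.83. Among lysosome and autophagy genes 14 of 21 were higher and 2 lower (median 0.32), with 1 lower without CLK8 replicate 2 or SR9011 replicate 1, led by the autophagy adaptor gene Sqstm1, at 566, 478 and 563 FPKM in SR9011 and 193, 182 and 191 FPKM in CLK8 (log2 1.5), and the protease gene Ctsl (1.13). Sqstm1 overlaps Mrnip.

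Growth-related groups moved in different directions. Of 16 tested p53 targets and CDK inhibitor genes, 9 were higher and 6 lower with SR9011. Gadd45a, a stress and growth arrest gene, had 81.4, 66.8 and 84.6 FPKM with SR9011, 20.7, 15.8 and 18.1 FPKM with CLK8 and 10.0, 10.2 and 9.49 FPKM with vehicle (log2 2.03, limma adjusted p = 4.28e-15). The CDK inhibitor gene Cdkn1a was higher by 1.26 and Cdkn1c lower (-1.29). Of 30 cell cycle and DNA replication genes, 24 were lower and 2 higher, with a median of -0.32. Tk1, the thymidine kinase gene, had 110.4, 106 and 91.9 FPKM with SR9011 and 197, 202 and 213 FPKM with CLK8 (log2 -0.98, limma adjusted p = 7.41e-12), though it overlaps Afmid, and Tyms (-0.77) and Rrm2 (-0.59) were lower as well. Cytosolic ribosomal protein genes were higher, 19 of 20 with none lower and a median of 0.54. Rpl4 had 1486, 1273 and 1304 FPKM with SR9011 and 817, 785 and 836 FPKM with CLK8 (log2 0.73, limma adjusted p = 4.21e-11). After quantile normalization 13 ribosomal genes were higher, 1 was lower and the median was 0.18. SR9011 replicate 1 was the highest SR9011 library in Rpl4, and stood above the mean of the other SR9011 libraries by 0.24 on the log2 scale at the median over the list.

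**Figure D4:**
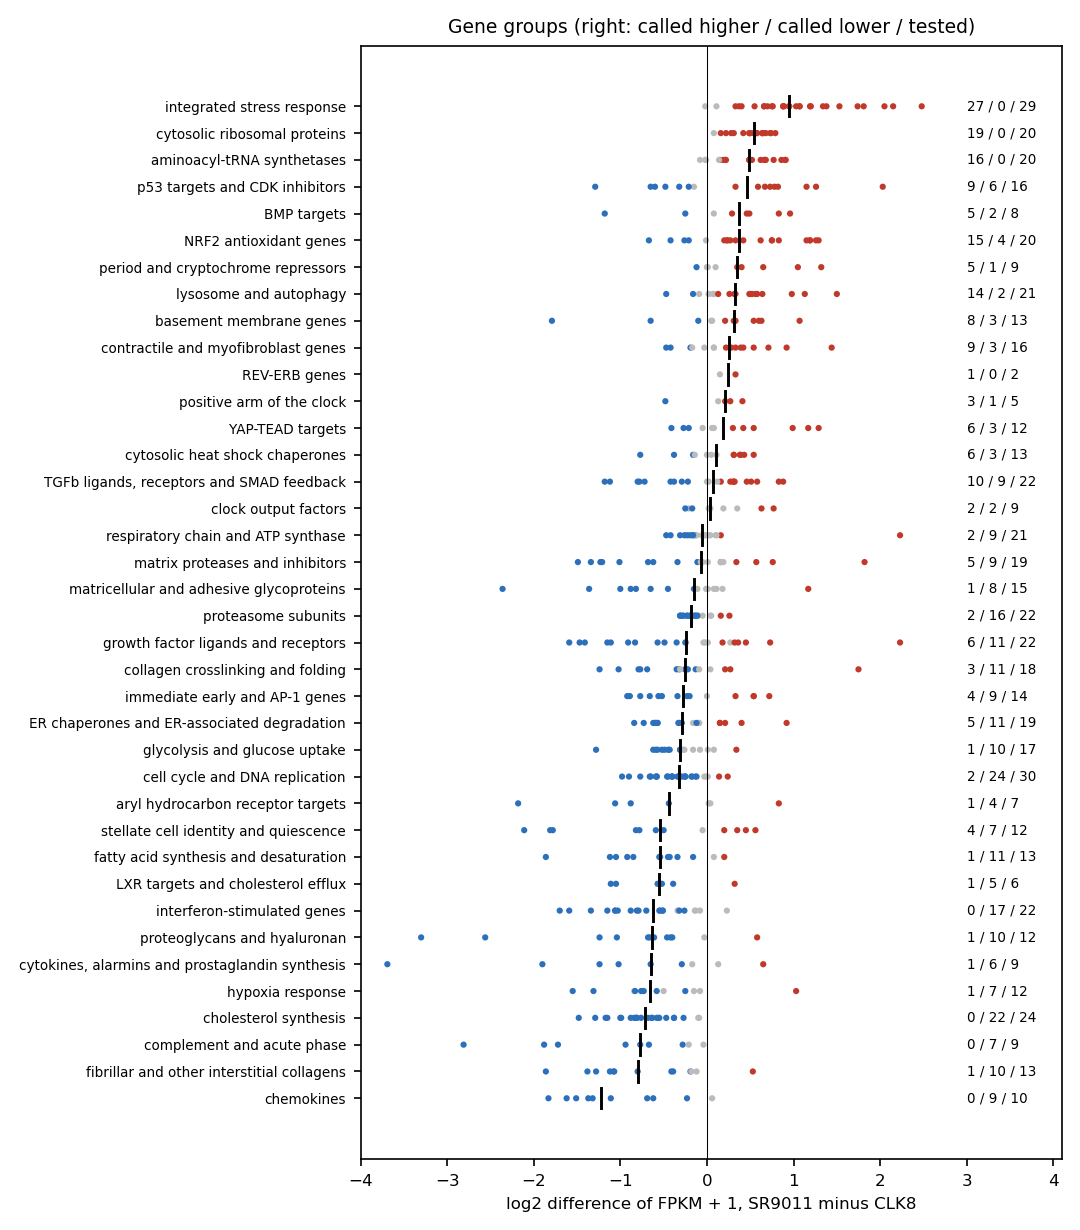
Log2 difference of FPKM + 1, SR9011 minus CLK8 (horizontal axis), of every tested member of 38 gene lists (vertical axis), with members called higher in red, called lower in blue and not called in grey, the list median as a black tick and the counts called higher, called lower and tested at the right. Integrated stress response genes (27, 0 and 29) stand at the top and chemokines (0, 9 and 10) at the bottom.

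Most genes of lipid synthesis were lower with SR9011. Of 24 genes of cholesterol synthesis and its control, 22 were lower and 0 higher, with a median of -0.72. Tm7sf2, a sterol reductase gene that overlaps Vps51, had 8.23, 8.17 and 5.82 FPKM with SR9011, 20.3, 23.9 and 22.7 FPKM with CLK8 and 11.9, 11.8 and 13.5 FPKM with vehicle (log2 -1.48, limma adjusted p = 9.63e-12). Idi1, an isoprenoid synthesis gene, had 20.6, 30.4 and 23.5 FPKM with SR9011, 57.0, 67.9 and 59.9 FPKM with CLK8 and 60.4, 55.5 and 58.8 FPKM with vehicle (log2 -1.29). In Idi1 the CLK8 and vehicle libraries overlapped, and in Tm7sf2 vehicle lay between the compounds. Hmgcs1 (-1.15), Acat2 (-1.0) and Mvk (-0.81), of the mevalonate pathway, were lower, while Srebf2 (-0.09), the regulator of the pathway, and Ebp (-0.10) were not called. Of 13 fatty acid genes 11 were lower and 1 (Me1, 0.20) was higher. Elovl6, an elongase gene, had 3.43, 4.59 and 3.60 FPKM with SR9011 and 16.2, 17.5 and 16.1 FPKM with CLK8 (log2 -1.86, limma adjusted p = 4.28e-15), and the desaturase gene Fads2 (-1.05) and the fatty acid synthase gene Fasn (-0.85) followed. Among LXR targets and related genes, 5 of 6 were lower, Apoe at 2.78, 2.62 and 2.30 FPKM in SR9011 and 6.97, 5.57 and 7.63 FPKM in CLK8 (log2 -1.11).

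More hypoxia-responsive and glycolytic genes were lower than higher with SR9011, with values that rested in part on 1 library. Of 12 hypoxia genes 7 were lower and 1 higher (median -0.66), and of 17 glycolysis genes 10 were lower and 1 higher (median -0.31). Car9, a carbonic anhydrase gene induced by hypoxia, had 1.74, 1.22 and 1.26 FPKM with SR9011, 4.66, 8.68 and 5.32 FPKM with CLK8 and 15.6, 19.9 and 17.97 FPKM with vehicle (log2 -1.55, limma adjusted p = 2.07e-07). Slc16a3, a lactate transporter gene, had 43.0, 36.3 and 33.3 FPKM with SR9011 and 77.2, 125 and 80.4 FPKM with CLK8 (log2 -1.28). Replicate 2 was the highest CLK8 library in both, as in Egln3 (7.87, 16.4 and 7.59 FPKM in CLK8) and Bnip3 (99.6, 186 and 96.0 FPKM in CLK8). Without it the medians were -0.32 for hypoxia, with 5 genes lower, and -0.15 for glycolysis, with 8 lower. Vegfa, the gene of an angiogenic growth factor that is also a target of ATF4, went the other way, at 198, 189.6 and 201 FPKM in SR9011, 91.1, 104 and 92.1 FPKM in CLK8 and 62.5, 72.1 and 68.9 FPKM in vehicle (log2 1.03, limma adjusted p = 4.74e-10).

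Interstitial collagen genes were mostly lower with SR9011 and basement membrane genes mostly higher. Of 13 genes listed as fibrillar and other interstitial collagens, 10 were lower and 1 (Col8a2, 0.53, not a fibrillar collagen) was higher, with a median of -0.80. Col1a1 (ENSMUSG00000001506, chromosome 11, 94936224 to 94953042), which codes for the main collagen of scar, had 417, 456 and 342 FPKM with SR9011, 1076, 1043 and 1026 FPKM with CLK8 and 1651, 1511 and 1561 FPKM with vehicle (log2 -1.38, SE 0.082, limma adjusted p = 1.61e-12). Every SR9011 library was below every CLK8 library and every CLK8 library below vehicle. Col3a1 had 59.4, 72.4 and 41.5 FPKM with SR9011, 205, 223 and 194 FPKM with CLK8 and 183, 198 and 198 FPKM with vehicle (log2 -1.86), so that there only SR9011 stood apart. Col1a2 was lower too (log2 -1.12). Of 13 basement membrane genes 8 were higher and 3 lower (median 0.31). Lama5, a laminin chain gene, had 64.6, 67.3 and 62.0 FPKM with SR9011, 29.9, 31.5 and 29.6 FPKM with CLK8 and 45.5, 45.8 and 47.9 FPKM with vehicle (log2 1.07, limma adjusted p = 7.01e-14), vehicle lying between the compounds. Col4a2, which overlaps Col4a1, was higher by 0.54. Nid2, a nidogen gene that overlaps Rtraf, was lower (-1.79).

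Of 12 proteoglycan and hyaluronan genes 10 were lower and 1 (Ogn, 0.58) was higher, with a median of -0.64. Besides Vcan, Prg4, the gene of the lubricating protein lubricin, set the compounds apart, at 6.73, 9.48 and 6.73 FPKM in SR9011, 44.3, 57.6 and 47.8 FPKM in CLK8 and 6.03, 8.28 and 8.58 FPKM in vehicle (log2 -2.56, limma adjusted p = 1.72e-10). SR9011 and vehicle overlapped, and CLK8 stood above both. Prg4 overlaps Tpr. The hyaluronan synthase gene Has2 was lower with SR9011 (-1.24), at means of 0.187 FPKM in SR9011 and 1.80 FPKM in CLK8. Of 15 matricellular and adhesive genes 8 were lower and 1 higher (2 without SR9011 replicate 1), and the median of -0.15 was -0.08 without SR9011 replicate 3 and -0.23 after TPM scaling. Thbs1, which codes for thrombospondin 1, an activator of latent TGFb, had 14.3, 18.4 and 16.0 FPKM with SR9011, 93.2, 80.1 and 88.5 FPKM with CLK8 and 94.1, 89.9 and 88.7 FPKM with vehicle (log2 -2.36, limma adjusted p = 2.36e-17). Ccn2, a matricellular growth factor gene, was the one higher, at 15.1, 10.8 and 22.4 FPKM in SR9011, 8.33, 3.66 and 7.99 FPKM in CLK8 and 41.1, 34.9 and 32.0 FPKM in vehicle (log2 1.17, limma adjusted p = 0.000703). Its values varied within both groups, without overlap between them, and all were below vehicle.

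Matrix proteases were divided, 5 of 19 higher and 9 lower, with a median of -0.07 that was 0.01 after quantile normalization, -0.15 after TPM scaling, and between -0.13 (without CLK8 replicate 2) and -0.01 (without CLK8 replicate 1) with 1 library left out. Mmp13, an interstitial collagenase gene, had 40.0, 47.4 and 50.2 FPKM with SR9011, 12.4, 12.5 and 11.9 FPKM with CLK8 and 4.51, 4.74 and 4.55 FPKM with vehicle (log2 1.82, limma adjusted p = 8.49e-13). Both compounds were above vehicle and SR9011 above CLK8. The aggrecanase-type protease genes Adamts1 (-1.34) and Adamts5 (-1.21) were lower, as was the inhibitor gene Timp1 (-0.34), at 74.1 ± 4.85 FPKM in SR9011 and 94.3 ± 5.15 FPKM in CLK8 (SD, n = 3 each). Of 18 genes for collagen folding and crosslinking 11 were lower and 3 higher, with 7 lower in the fit of the compared groups alone, and the median of -0.25 was -0.15 without CLK8 replicate 2. Loxl4, a lysyl oxidase gene, was the largest difference of that list, at 6.36, 5.49 and 7.21 FPKM in SR9011 and 1.19, 1.11 and 1.22 FPKM in CLK8 (log2 1.75, limma adjusted p = 1.68e-15). P4ha3 (-1.02) and Pcolce (-0.77), of proline hydroxylation and propeptide cleavage, were lower.

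Contractile genes did not follow the collagens. Of 16 tested, 9 were higher and 3 lower with SR9011 (median 0.25). Acta2 (ENSMUSG00000035783, chromosome 19, 34241090 to 34255590) codes for smooth muscle actin, a mark of myofibroblasts, and had 90.4, 67.6 and 97.6 FPKM with SR9011, 37.5, 22.9 and 32.4 FPKM with CLK8 and 102, 104 and 93.9 FPKM with vehicle (log2 1.44, SE 0.145, limma adjusted p = 3.84e-08). All CLK8 libraries were below the others, and SR9011 against vehicle was not called (log2 -0.24, limma adjusted p = 0.142). Thus the collagen gene and the actin gene used as marks of activation stood in opposite order between the compounds. The integrin gene Itgb5 was higher by 0.92, and Palld, which codes for an actin-bundling protein, was lower (-0.47). Of 22 genes of TGFb ligands, receptors and feedback 10 were higher and 9 lower, with a median of 0.07 that was 0.03 without SR9011 replicate 3 and 0.01 after TPM scaling. Tgfb1 had 49.6, 45.4 and 46.6 FPKM with SR9011 and 24.7, 23.8 and 27.1 FPKM with CLK8 (log2 0.88, limma adjusted p = 8.37e-13), while Tgfb3, which overlaps Ttll5, was lower (-1.12) and so was the pseudoreceptor gene Bambi (-1.18). Of 8 BMP targets 5 were higher, among them the inhibitory SMAD gene Smad6 (0.83) and Smad9 (0.96), and 2 were lower, or 1 without CLK8 replicate 2 or SR9011 replicate 3.

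Most inflammatory genes tested were lower with SR9011. Of 10 tested chemokine genes 9 were lower and 0 higher (median -1.22). Cxcl12 (ENSMUSG00000061353, chromosome 6, 117168535 to 117181367), the chemokine that retains CXCR4-bearing cells, had 260.2, 312 and 214 FPKM with SR9011, 877, 973 and 920.1 FPKM with CLK8 and 885, 927 and 900.2 FPKM with vehicle (log2 -1.83, limma adjusted p = 1.54e-14). Ccl2, the monocyte chemokine, had 16.1, 14.2 and 19.0 FPKM with SR9011, 59.5, 42.6 and 56.0 FPKM with CLK8 and 179, 235 and 208 FPKM with vehicle (log2 -1.62, limma adjusted p = 2.65e-08). For Cxcl12 the CLK8 libraries overlapped vehicle, and for Ccl2 they lay below it with SR9011 lower still. Of 9 cytokine, alarmin and prostaglandin genes 6 were lower and 1 higher (2 without SR9011 replicate 3). Il6 had 0.170, 0.0900 and 0.250 FPKM with SR9011, 3.34, 3.68 and 3.09 FPKM with CLK8 and 1.75, 2.10 and 1.57 FPKM with vehicle (log2 -1.90), CLK8 standing above vehicle. Ptgs1, a cyclooxygenase gene, was lower (-0.65). Il11, a fibrogenic cytokine of the IL-6 family, was the one higher, at 1.67, 1.45 and 1.70 FPKM in SR9011 and 0.480, 0.720 and 0.790 FPKM in CLK8 (log2 0.65).

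Of 9 complement and acute phase genes 7 were lower and 0 higher (median -0.77). The complement gene C3 had 91.4, 86.8 and 88.0 FPKM with SR9011, 304, 376 and 314 FPKM with CLK8 and 233, 303 and 281 FPKM with vehicle (log2 -1.88, limma adjusted p = 2.46e-09), and C4b was lower as well (log2 -1.72). Of 22 interferon-stimulated genes 17 were lower and 0 higher (median -0.62), among them the guanylate-binding protein genes Gbp3 (-1.70) and Gbp2 (-1.59) and the transcription factor gene Irf1 (-0.70). Gbp3 had 3.36, 3.32 and 3.13 FPKM with SR9011 and 14.6, 13.2 and 11.01 FPKM with CLK8. Of 7 tested genes of the aryl hydrocarbon receptor (AhR), a sensor of planar aromatic compounds, and its targets, 4 were lower with SR9011 and 1 (Nqo1, 0.83) higher, or 2 without SR9011 replicate 1, and Ahr and Arnt were not called. Aldh3a1 had 2.39, 2.39 and 1.90 FPKM with SR9011, 14.7, 12.3 and 13.8 FPKM with CLK8 and 2.43, 2.66 and 2.95 FPKM with vehicle (log2 -2.18, limma adjusted p = 3.44e-13). Cyp1b1 had 16.5, 18.5 and 19.5 FPKM with SR9011, 42.3, 39.1 and 35.7 FPKM with CLK8 and 16.8, 17.3 and 15.9 FPKM with vehicle (log2 -1.06, limma adjusted p = 1.5e-13). In both, SR9011 libraries were close to vehicle and CLK8 libraries above.

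Genes of stellate cell identity and of growth factor signalling were among those lower with SR9011. Of 12 tested identity genes 7 were lower and 4 higher (median -0.54). Pdgfra (ENSMUSG00000029231, chromosome 5, 75152292 to 75198215), a PDGF receptor gene, had 15.2, 21.2 and 17.8 FPKM with SR9011, 79.7, 83.6 and 78.9 FPKM with CLK8 and 89.9, 88.9 and 87.2 FPKM with vehicle (log2 -2.11, limma adjusted p = 1.46e-15). Hand2, a transcription factor gene of the stellate lineage, had 27.4, 28.3 and 23.4 FPKM with SR9011, 85.6, 96.1 and 97.6 FPKM with CLK8 and 62.9, 73.3 and 70.9 FPKM with vehicle (log2 -1.78, limma adjusted p = 7.68e-15). Pdgfrb (0.35), Gata4 (0.56), Plin2 (0.45) and Tcf21 (0.20) were higher, and Lhx2 was not called (95% interval -0.19 to 0.08). Of 22 growth factor genes 11 were lower and 6 higher. The fetal growth factor gene Igf2 had 314, 317 and 241 FPKM with SR9011 and 790.1, 911 and 916 FPKM with CLK8 (log2 -1.59, limma adjusted p = 4.86e-12), and the receptor gene Egfr was lower as well (-1.41).

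The vehicle libraries place each difference, as a description, since both comparisons with vehicle share them. Of the 140 genes at least 2-fold higher with SR9011, the vehicle mean lay nearer to CLK8 in 127 and nearer to SR9011 in 13, and between the compounds in 35. Of the 296 genes at least 2-fold lower, it lay nearer to CLK8 in 246 and nearer to SR9011 in 50, and between them in 173. Against vehicle, 7801 genes (69.1%) were called for SR9011 and 4959 (43.9%) for CLK8, with 672 (5.95%) and 145 (1.28%) at 2-fold or more (limma, Benjamini-Hochberg). Genes whose vehicle mean lay nearer to SR9011 included Vcan, Slpi, Prg4, Aldh3a1 and Cyp1b1, chosen after their values were seen. Acta2 and Ciart did so among the genes higher with SR9011. For Vcan and Slpi vehicle still lay between the compounds, with SR9011 below it.

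The same pair of compounds was given with TGFb to other cells, whose 6 libraries are not shared with the comparison above. There 3218 genes (28.5%) were higher and 2835 (25.1%) lower with SR9011+TGFb than with CLK8+TGFb, 53.6% in all. All 140 genes at least 2-fold higher without TGFb had the same sign with it, and 130 were called in that direction, but the median difference was 0.71 with TGFb, against 1.22 without. Of the 296 genes at least 2-fold lower, 288 had the same sign, 266 were called lower and 2 called higher, with medians of -0.90 with TGFb and -1.28 without. These genes were chosen by their difference without TGFb, so the medians, and the counts of smaller differences that follow, are a description. The difference between the differences was itself called for 2982 of 11297 genes (26.4%), among them 103 of the 140, of which 101 were smaller with TGFb, and 187 of the 296, of which 181 were smaller. Over all called genes, 3214 of the 3675 higher (87.5%) and 2980 of the 3514 lower (84.8%) kept their sign.

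Stress genes were among those that differed less with TGFb. Of the 29 genes of the integrated stress response list 20 were higher and 2 lower with SR9011+TGFb, with a median of 0.30. Trib3 had 147, 163 and 150.4 FPKM with SR9011+TGFb and 139.9, 143 and 131 FPKM with CLK8+TGFb (log2 0.15, limma adjusted p = 0.117), where SR9011+TGFb lay above CLK8+TGFb without overlap but was not called. Ppp1r15a had 34.5, 44.5 and 37.5 FPKM with SR9011+TGFb and 25.3, 25.5 and 23.7 FPKM with CLK8+TGFb (log2 0.62, and -1.87 for the difference between the differences, limma adjusted p = 2.91e-10). Calr, lower without TGFb, was not called with it, at 843, 813 and 844 FPKM with SR9011+TGFb and 745, 771 and 821 FPKM with CLK8+TGFb (log2 0.10). Cholesterol genes, 22 of 24 lower without TGFb, were 10 lower and 6 higher with it (median -0.14). Per1 differed by about as much as without TGFb (0.06 for the difference between the differences, limma adjusted p = 0.653), at 16.7, 17.1 and 18.3 FPKM with SR9011+TGFb and 7.12, 8.04 and 7.47 FPKM with CLK8+TGFb (log2 1.10), while Ciart was not called (log2 0.32, limma adjusted p = 0.0713). Col1a1 was lower with SR9011+TGFb, at 1047, 1006 and 1028 FPKM, than with CLK8+TGFb, at 1956, 2306 and 2064 FPKM (log2 -1.03). Ribosomal protein genes had the same median of 0.54 with and without TGFb, with 19 of 20 higher in each. Other lists stood further from 0 with TGFb. Interferon-stimulated genes were lower in 20 of 22 with SR9011+TGFb (median -1.03, against -0.62 without), and lysosome and autophagy genes were 19 higher and 0 lower (median 0.53, against 0.32). The AhR list was 5 lower and 1 higher (median -0.71, against -0.44). The synthetase genes, by contrast, were 4 higher and 5 lower (median 0.00, against 0.49). The differences between these medians were not tested.

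**Figure D5:**
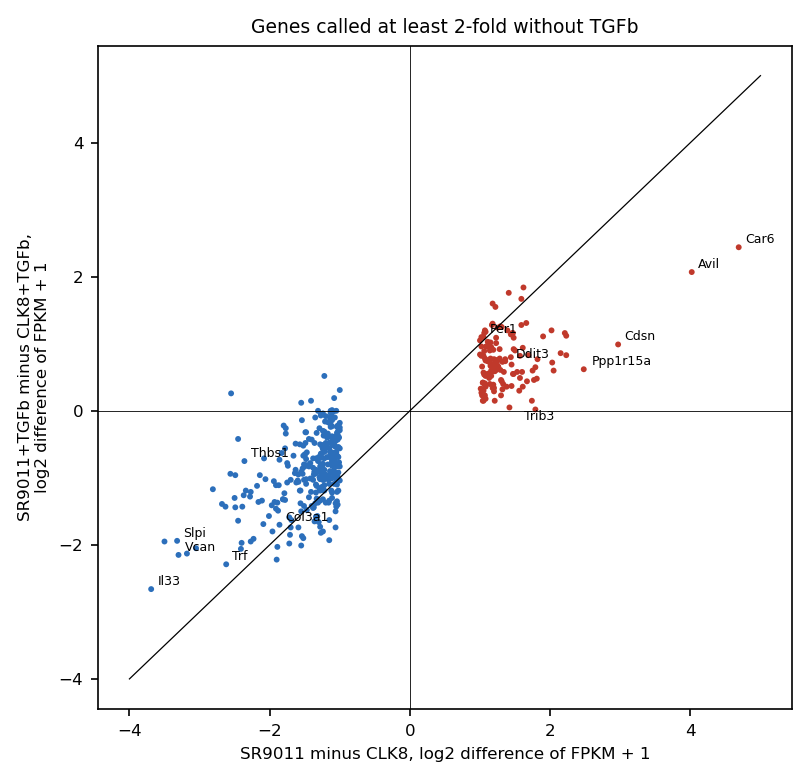
Log2 difference of FPKM + 1 for SR9011+TGFb minus CLK8+TGFb (vertical axis) against SR9011 minus CLK8 without TGFb (horizontal axis), for the 436 genes called at 2-fold or more without TGFb (red higher, blue lower) with the line of equality. Most points lie nearer to 0 on the vertical axis, such as Car6 at 4.69 without and 2.44 with TGFb and Ppp1r15a at 2.48 and 0.62.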

How the data were processed

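The authors deposited one table of FPKM values to 2 decimals, 1 column per library, with no cross-sample normalization stated. Per the submitters' processing notes the build was mm10 and HISAT2 2.0.4, Bowtie2 2.2.5, RSEM and DESeq2 were used, with no role or order given. Per the labels' protocols RNA was purified with 1 of 2 kits, chosen by yield, without saying which sample had which. Of 16612 gene IDs, 8 stood on 2 lines and were left out, and 16561 of the 16604 others had a symbol. The filter kept genes that reached 1 FPKM in 3 or more of the 24 libraries. Values were analysed as log2(FPKM + 1) in limma 3.58.1 (R 4.3.3) with all 8 groups in 1 fit, a variance trend, robust moderation and Benjamini-Hochberg adjustment, and the fit was tested on simulated data. The same fit gave the contrasts with vehicle, with TGFb, and the interaction. Positions are from GENCODE M21 on GRCm38 (mm10), and promoter sequences from RefSeq (GRCm38.p6).

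Genes named are the 10 largest called differences each way without overlap between groups, up to 3 called members per list by adjusted p, and a set of clock and activation genes. Some genes are not reported here. Further list members were named after their values were seen. The members and lists were chosen with earlier results of these data known. Alternatives were other pseudocounts, filters and scalings, no trend, fewer groups, group weights, a replicate block and leaving out each library. FPKM gives no read depth, so no counting interval is given.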

Additional observations from a re-analysis of the deposited data

Results flagged for a closer look

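For 27 of 42 genes tested, those with the 10 largest differences each way and the fixed clock and activation genes, the SR9011 and CLK8 cells differed by another amount with TGFb than without it, by limma's test of the difference between the differences (Benjamini-Hochberg adjusted over 11297 genes, where 26.4% of all genes were called). Values are SR9011+TGFb minus CLK8+TGFb, less SR9011 minus CLK8, on the log2 scale. The cells with TGFb had a second 24 h of compound, and the labels do not say whether the cells without TGFb had it too. An effect of that time therefore cannot be told apart from one of TGFb.

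Among the largest differences higher with SR9011 without TGFb, the values were Car6 -2.26, Cdsn -1.98, Avil -1.95, Ppp1r15a -1.87, Ddit3 -1.45, Angptl6 -1.40, Gadd45a -1.31, Atf3 -1.29, Cox6a2 -1.11 and B4galnt2 -1.05. Car6 had 16.8, 31.0 and 18.1 FPKM with SR9011+TGFb and 3, 3.02 and 3.28 FPKM with CLK8+TGFb, still without overlap. Gadd45a had 81.5, 99.2 and 80.5 FPKM with SR9011+TGFb and 52.4, 51.0 and 52.8 FPKM with CLK8+TGFb, so that SR9011+TGFb overlapped SR9011 while CLK8+TGFb stood above CLK8.

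For the genes lower with SR9011 the values were Ptn 1.0, Il33 1.02, Vstm2a 1.05, Vcan 1.16, Olfml3 1.20, Peg10 1.29, Slpi 1.38, Serpina3g 1.55 and Hp 1.65. Il33 stayed near 1 FPKM with SR9011+TGFb, at 0.790, 0.510 and 0.620 FPKM, against 7.75, 10.3 and 10.2 FPKM with CLK8+TGFb. Slpi had 13.3, 9.36 and 12.4 FPKM with SR9011+TGFb and 43.0, 45.3 and 54.4 FPKM with CLK8+TGFb. Vcan had 14.1, 13.1 and 13.4 FPKM with SR9011+TGFb and 64.6, 65.2 and 60.3 FPKM with CLK8+TGFb, above its levels without TGFb in both.

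In the clock the values were Ciart -1.0, Cry1 -0.40, Arntl -0.29, Tef 0.37 and Hlf 0.74. Hlf had 6.11, 4.23 and 5.96 FPKM with SR9011+TGFb and 2.51, 2.32 and 2.2 FPKM with CLK8+TGFb (log2 0.93, limma adjusted p = 2.08e-07), while without TGFb it was not called. Among the activation genes the values were Acta2 -0.64, Timp1 -0.30 and Col1a1 0.35. Timp1 was the one of these with a larger difference with TGFb (log2 -0.64) than without (-0.34). Of all 144 tested genes that the naming rule covered, lists included, 93 were called. Many of these genes were chosen by their difference or adjusted p without TGFb, so this count is a description too. Among those called were Trib3 -1.59 (adjusted p = 1.62e-09), Fgf21 -1.33 (1.57e-07), Loxl4 -1.16 (9.21e-09), Thbs1 1.62 (2.59e-10), Prg4 1.63 (8.29e-05) and Cxcl12 1.20 (8.19e-08), by limma.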

How the results depend on the processing

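The count of genes called for SR9011 against CLK8 was 7189, and between 6603 and 7185 with 1 library left out. The corresponding ranges were 5338 to 5567 with TGFb (6053 with all libraries), 2482 to 3398 for the interaction (2982), 7342 to 7863 for SR9011 against vehicle (7801), 4217 to 4558 for CLK8 against vehicle (4959) and 407 to 483 for differences of 2-fold (436). With a pseudocount of 0.1 the 2-fold count was 707. The other alternatives left these 6 counts within 1.5 times. Of 145 genes named by the rule, 138 were called and 135 kept direction and call in all settings. Per3 was at 0.01 and reversed to -0.06 after TPM scaling, -0.01 without CLK8 replicate 1 and -0.12 without SR9011 replicate 2. Tef was at 0.02 and reversed to -0.06 after TPM scaling, and to -0.00 after quantile normalization and without SR9011 replicate 1, and was -0.01 without SR9011 replicate 2. With 1 library left out Per3 ranged between -0.12 and 0.08 and Tef between -0.01 and 0.07, and neither was called in any of these. Rora, Cd14 and Sox9 lost their call in some settings, and Bhlhe40, Dbp, Hlf, Nr1d2 and Per2 gained one in some. The causes were not tested. With the replicate block 3721 genes were higher and 3546 lower, and Bhlhe40 (0.35, limma adjusted p = 0.0257) and Dbp (-0.21, limma adjusted p = 0.0429) were called. Same-numbered SR9011 and CLK8 libraries had residual correlations of 0.0793, 0.396 and -0.0059, and 2 of 6 libraries correlated best with their own number, so the numbers were not taken as pairs. With the libraries of SR9011 given their own weight (0.347, against 0.919 for CLK8), 3043 genes were higher and 2875 lower. FPKM hides read depth, so counting error cannot be set beside low values such as those of Il33, Il6 and Has2 with SR9011.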

Other observations

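Smaller groups also differed. Of 12 tested YAP-TEAD targets 6 were higher and 3 lower with SR9011 (median 0.19, or 0.11 after TPM scaling, and 0.12 without CLK8 replicate 2, 0.30 without CLK8 replicate 1 and 0.31 without SR9011 replicate 2). Ankrd1, a stretch-responsive target, had 46.3, 34.4 and 66.9 FPKM with SR9011, 23.7, 13.6 and 20.8 FPKM with CLK8 and 33.7, 32.5 and 29.2 FPKM with vehicle (log2 1.29, limma adjusted p = 2.52e-05). The order of the libraries within a group was alike in Ankrd1, Ccn2, Tagln and Acta2, where replicate 2 was the lowest in both SR9011 and CLK8. Of 14 immediate early genes 9 were lower and 4 higher (median -0.28), with Fosl1 at -0.92 and Junb, which overlaps Prdx2, at -0.89, against Mafk at 0.72.

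Of 22 proteasome subunit genes 16 were lower and 2 higher, with small differences (median -0.18, or -0.11 without SR9011 replicate 2), and 8 were lower in the fit of the compared groups alone and 10 without SR9011 replicate 2. Of 21 respiratory chain and ATP synthase genes 9 were lower and 2 higher, with 7 lower and 1 higher in the fit of the compared groups alone, 13 lower and 1 higher after TPM scaling, 6 higher after quantile normalization and 4 higher without SR9011 replicate 2. The median of -0.06 was -0.14 after TPM scaling, -0.03 after quantile normalization, -0.13 without SR9011 replicate 1, -0.12 without CLK8 replicate 2, -0.03 without CLK8 replicate 3 and 0.01 without SR9011 replicate 2, so that its sign rested on 1 library. Cox6a2, at 10.6, 9.97 and 10.9 FPKM in SR9011, 1.24, 1.45 and 1.64 FPKM in CLK8 and 0.270, 0.470 and 0.470 FPKM in vehicle, was the one over 2-fold. Cox6a2 is the isoform of heart and skeletal muscle, and the isoform of other tissues, Cox6a1, was not called (-0.12, at 546 FPKM in SR9011 and 593 FPKM in CLK8). Mesothelial markers did not move together between the compounds, Lrrn4 being lower with SR9011 (-1.89) and Msln higher (0.66). Both compounds lay below vehicle in the summed mesothelial markers, at 171 to 258 FPKM in SR9011, 235 to 279 FPKM in CLK8 and 553 to 572 FPKM in vehicle.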
